A study of Mus musculus with 36 samples.

Results

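The enzymes that turn tryptophan and its product kynurenine into other compounds were followed in the gastrocnemius muscle of running and sedentary mice. The set held 10 genes, chosen by name from the 46893 features of the count table. They are the kynurenine aminotransferases Kyat1, Kyat3, Aadat and Got2, the formamidase Afmid, the aldehyde oxidase Aox1, the methyltransferase Inmt, the decarboxylase Ddc and the monoamine oxidases Maoa and Maob. All 10 names were found once each in the table. Averaged over the 36 libraries, 8 of them reached 25 counts, while Ddc and Aadat did not.

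The study sequenced muscle RNA of 36 male mice to ask how a set running distance changes muscle transcripts under a high-fat diet. It reported tryptophan metabolism as the top pathway among genes raised at 4.2 km/day and absent at the other distances. It discussed this in relation to depression. Those genes were called by DESeq2 at an unadjusted p, a different test from the main one used here. All mice were wild-type (WT) C57BL/6 animals that were 3 to 4 weeks old at the start, and the diets and wheels were given for 12 weeks. HFD-C mice were sedentary and ate a diet in which fat gave 45% of the energy. On the same diet, runners covered 2.1 km/day (HFD-25%), 4.2 km/day (HFD-50%), 6.3 km/day (HFD-75%) or 8.3 km/day (HFD-U) on wheels, which is 25, 50, 75 and 100% of the unrestricted distance. NFD-C mice were sedentary with 16% of the dietary energy as fat. Each group held 6 mice with 1 library each, and no genetic change or drug was part of the design. Protein levels, enzyme activity and kynurenine itself were not measured in these files.

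Most tryptophan that is not built into protein is opened to formylkynurenine in the liver or in immune cells, and a formamidase releases kynurenine from it. Kynurenine crosses into the brain, whereas kynurenic acid, the product of the kynurenine aminotransferases, crosses poorly. Muscle is known as a site where training can raise these aminotransferases through the coactivator PGC-1α and its partners of the PPAR family. Tryptophan also feeds serotonin and trace amines through the decarboxylase Ddc, and the monoamine oxidases break these amines down.

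Library totals ran from 13060090 to 27981702 gene counts (median 16710687.5), and 3 counts corresponded to 0.107 to 0.23 CPM, the count scaled to library size. Fast muscle genes marked the tissue as labelled, with means of 47940 CPM for the myosin Myh4 and 25920 CPM for the actin Acta1. The fast light chain Mylpf, however, was listed at only 0.798 CPM. It overlaps Septin1 on the opposite strand over 1579 bases of its span, and a low value in this table need not be a low transcript level. Features linked to ribosomal RNA parted the libraries. They took 2.01 to 3.81% of the counts in 10 libraries (all NFD-C, and replicates 1 to 4 of HFD-C) and 0.404 to 1.02% in the other 26, which included HFD-C replicates 5 and 6 and all 24 runners. In most comparisons with HFD-C, the library set therefore moved with the group, and values within the low-share set are given for the members and for the pathway genes named in HFD-50%. In whole muscle, fewer cells of one type and less RNA per cell cannot be told apart.

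The level of a gene was compared between genes as FPKM, which divides the CPM by the gene length given in the table in units of 1000 bases. Got2, the mitochondrial aspartate aminotransferase that also accepts kynurenine, was by far the most abundant, with 168 ± 44.9 FPKM (SD, n = 36), and was above Inmt in all 36 libraries. Inmt, which methylates indole amines such as tryptamine, followed with 30.8 ± 11.5 FPKM. Aox1, a molybdenum enzyme that oxidises aldehydes and heterocycles, had 11.1 ± 3.78 FPKM, and Maob 8.70 ± 2.37. These neighbours were not well parted, since Aox1 lay above Maob in 27 of 36 libraries. Kyat1 had 4.84 ± 0.658 FPKM and Kyat3 3.26 ± 1.17, followed by Maoa with 2.30 ± 0.515 and the formamidase Afmid with 0.766 ± 0.166. Kyat3 was above Maoa in 28 of 36 libraries.

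**Figure D1:**
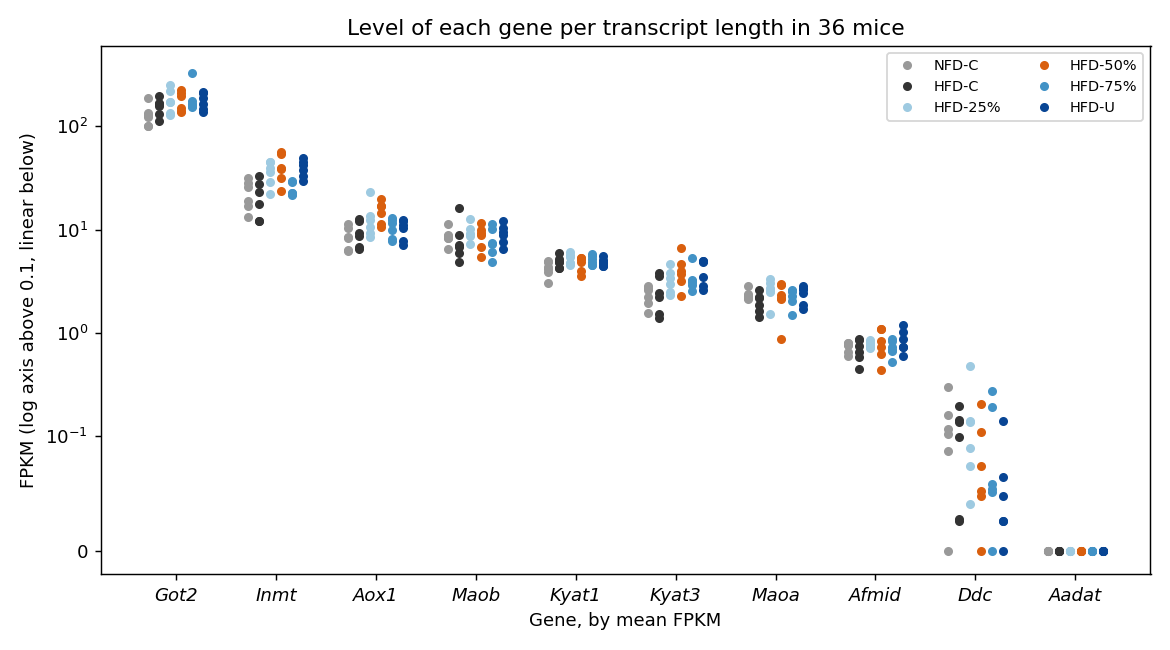
FPKM of each gene (vertical axis, logarithmic above 0.1 and linear below) in the 36 mice, coloured by group, with genes ordered by their mean. Got2 stands above all other genes at a mean of 168 FPKM, Ddc lies near 0.106 FPKM, and Aadat is listed at 0 in every library.

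Ddc and Aadat were at the floor of the table. Ddc, which makes serotonin and tryptamine from their amino acids, had 176 counts over all libraries, from 0 to 27 counts in a library with 4 libraries at 0. Its mean was 0.332 CPM or less in NFD-C, HFD-C, HFD-50%, HFD-75% and HFD-U, and 0.416 ± 0.418 CPM in HFD-25% (SD, n = 6). The groups overlapped in all 8 comparisons between single groups, and the two-sided exact permutation p-values ran from 0.145 to 0.998 (0.799 to 0.998 after Benjamini-Hochberg adjustment over the 8, smallest possible p 0.00216). Aadat, the aminoadipate aminotransferase that is also named kynurenine aminotransferase II, had 0 counts in all 36 libraries. A count of 0 allows up to 3 counts per library, or 0.23 CPM in the shallowest, for counting error only.

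On the GRCm39 positions given with the counts, Kyat1 lies on chromosome 2 (30075136 to 30096307, minus strand), Kyat3 on chromosome 3 (142406780 to 142450672, plus strand) and Got2 on chromosome 8 (96590761 to 96615029, minus strand). Aox1 spans 58068963 to 58145569 on the plus strand of chromosome 1, and Inmt 55147612 to 55151975 on the minus strand of chromosome 6. Afmid is on chromosome 11 (117716329 to 117730734, plus strand). Aadat (60958877 to 60998711, plus strand of chromosome 8) and Ddc (11764101 to 11848144, minus strand of chromosome 11) are listed with their positions too. Maoa (16485937 to 16554051, plus strand) and Maob (16575520 to 16683605, minus strand) are neighbours on the X chromosome. Afmid shares 585 bases of its span with Tk1 on the opposite strand, and Kyat1 shares 448 bases with the non-coding Gm31201. It is not given in the sources used here whether counting used the strand, so reads in these stretches cannot be assigned with certainty. Ddc shares 9462 bases with Gm51937 (7 counts in total) and 17199 with 1700042O10Rik (1 count), both on the opposite strand. No other feature overlapped Kyat3, Aadat, Got2, Aox1, Inmt, Maoa or Maob.

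The 250 bases before the start of Kyat3, Aox1 and Inmt are shown because these were the members that differed most from HFD-C in a running group. They are RefSeq sequences on GRCm38.p6, 5′ to 3′ on the strand of the gene, at chr3:142700798-142701047 (plus), chr1:58029719-58029968 (plus) and chr6:55174991-55175240 (minus). Capitals mark every match, on either strand, to the CCAAT box, the TATA box spelled TATAAA, or the glucocorticoid-type repeat spelled ACANNNTGT.
Kyat3: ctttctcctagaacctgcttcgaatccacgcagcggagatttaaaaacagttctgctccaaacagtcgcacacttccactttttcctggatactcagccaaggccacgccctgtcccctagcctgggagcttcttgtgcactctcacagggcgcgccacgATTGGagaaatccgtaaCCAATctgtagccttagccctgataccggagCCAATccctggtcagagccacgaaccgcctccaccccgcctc
Aox1: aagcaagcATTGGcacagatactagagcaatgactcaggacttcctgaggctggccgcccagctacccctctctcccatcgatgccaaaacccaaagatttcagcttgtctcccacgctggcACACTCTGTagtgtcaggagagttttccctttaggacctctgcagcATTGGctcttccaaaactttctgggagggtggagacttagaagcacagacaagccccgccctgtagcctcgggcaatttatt
Inmt: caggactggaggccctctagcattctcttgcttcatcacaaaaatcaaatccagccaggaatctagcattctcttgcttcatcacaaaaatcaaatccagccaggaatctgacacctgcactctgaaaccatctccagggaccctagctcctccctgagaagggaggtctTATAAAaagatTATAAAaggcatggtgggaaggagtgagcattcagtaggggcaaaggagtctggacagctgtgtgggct
The CCAAT box occurred 3 times in Kyat3 and 2 times in Aox1, and it is present in 34.5% of 27025 RefSeq promoters of the same length. The TATA box occurred 2 times in Inmt, against 13% of promoters with at least 1 match. The glucocorticoid-type repeat occurred in Aox1 alone among the 9 members with a promoter in the table, against 5.91% of all promoters. AGGTCA, the half-site of many nuclear receptors, was present in the windows of Got2 and Ddc and in 13.8% of all promoters. Its direct repeat with 1 base between occurred in no member and in 0.037% of promoters. The Inmt window also held an exact repeat of 46 bases, with copies that begin 235 and 189 bases before the start. These matches describe letters in a window and were not tested for binding.

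Each running group was compared with HFD-C, 6 mice against 6, by edgeR's quasi-likelihood test on every gene that averaged 25 counts or more. The 4 comparisons share the same 6 HFD-C mice. In HFD-50%, Inmt, Aox1 and Kyat3 were higher than in HFD-C, by 1.93, 1.62 and 1.63 times, at an unadjusted p of 0.05 or less, called the unadjusted limit here. These were 3 of 8 members tested, and 10.7% of the 12116 genes tested passed the same limit. In HFD-25% only Inmt passed it (1 of 8, 6.98% of genes), in HFD-U Inmt and Kyat3 (2 of 8, 5.46% of genes), and in HFD-75% 0 of 8 (5.47% of genes). All of these were higher in the runners.

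After Benjamini-Hochberg adjustment over all genes, 0 of 8 members passed an adjusted p of 0.05 in any of these comparisons with edgeR, and 0.0082% of genes did so in HFD-25% and 0% in the other 3. DESeq2 on the same genes passed 1 of 8 members, Inmt, in HFD-50% (adjusted p = 0.0459), where it passed 160 of 12116 genes. It passed no member in the other 3 groups, beside 44 of 12202 genes (HFD-25%), 40 of 12113 (HFD-75%) and 28 of 12023 (HFD-U). The median log2 fold change of the 8 members was 0.28 (HFD-25%), 0.20 (HFD-50%), 0.17 (HFD-75%) and 0.21 (HFD-U). Over all genes tested the medians were close to 0, for example -0.01 in HFD-25% and 0.01 in HFD-50%. Above 0 were 8 members in HFD-25% and 7 in each of the other groups, a description that rests on the shared HFD-C mice.

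**Figure D2:**
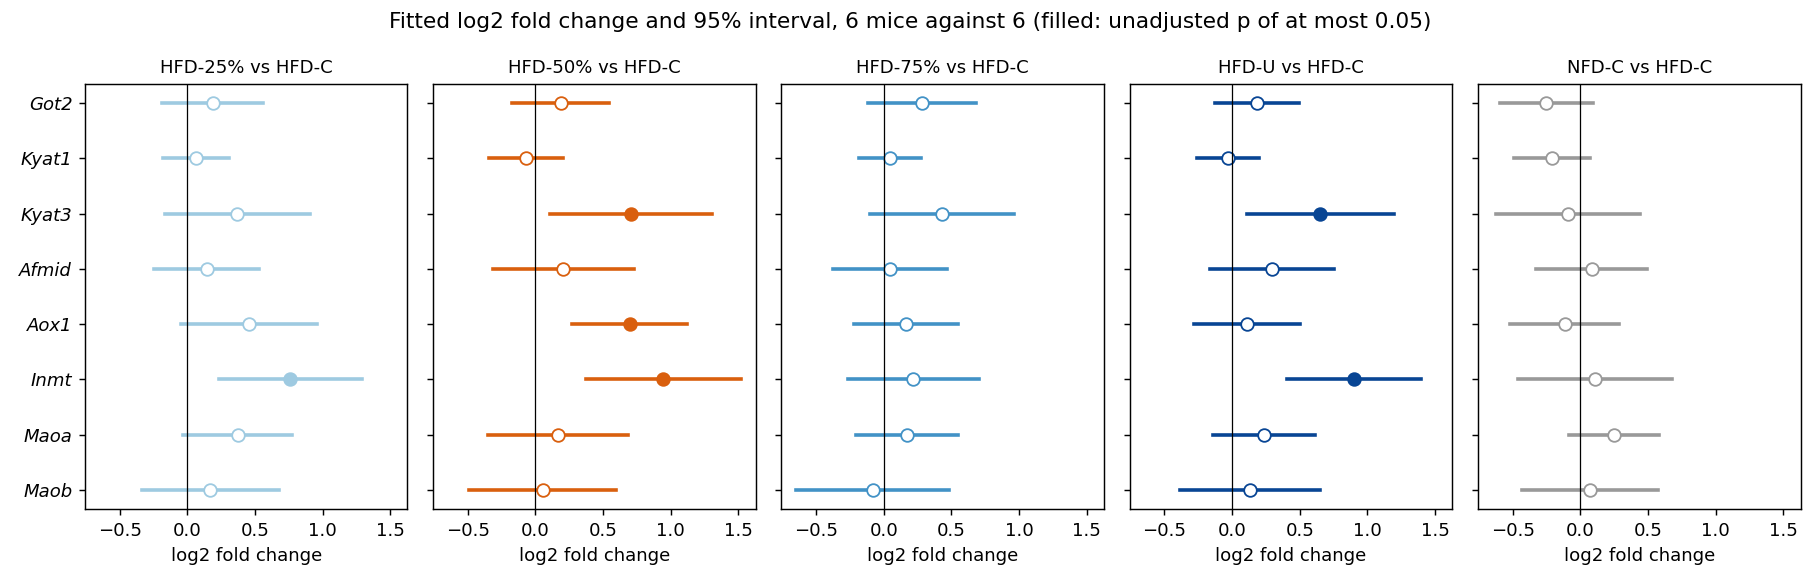
Fitted log2 fold change against HFD-C (horizontal axis) with its 95% interval for the 8 members tested, 1 panel per group of 6 mice, where filled points passed the unadjusted limit of 0.05. Inmt is filled in HFD-25%, HFD-50% and HFD-U, Kyat3 in HFD-50% and HFD-U, and Aox1 in HFD-50%, while no point is filled in HFD-75% or NFD-C.

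Among the aminotransferases, Got2 held nearly the whole summed level, from 93.2 to 96.8% of the FPKM of Got2, Kyat1, Kyat3 and Aadat in every library. Got2 is better known for the malate-aspartate shuttle, which carries reducing equivalents into mitochondria. It ranged from 267 to 469 CPM in HFD-C (median 384), 304 to 598 in HFD-25% (410), 325 to 532 in HFD-50% (416), 363 to 778 in HFD-75% (391) and 332 to 510 in HFD-U (423). The groups overlapped widely. The log2 fold changes against HFD-C were 0.18 to 0.28, and none passed the unadjusted limit. The highest, in HFD-75%, was 0.07 without HFD-75% replicate 1, the mouse at 778 CPM. They were 0.23 to 0.33 within the low-share set. In NFD-C the level was 309 ± 77.8 CPM against 370 ± 70.4 in HFD-C (log2 fold change -0.25, adjusted p = 1 from edgeR). Without NFD-C replicate 1, its highest mouse, that difference was -0.39 and passed the unadjusted limit (adjusted p = 0.615, edgeR).

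Kyat1 and Kyat3 are the enzymes named for kynurenine, and a difference between them was not tested. Kyat1 was nearly flat, with group means of 20.5 to 22.7 CPM in the high-fat groups and log2 fold changes of -0.07 to 0.07 in the runners. The widest of its 95% intervals in the running groups, that of HFD-50%, ran from -0.34 to 0.20, and in the low-share set the values were -0.08 to 0.07. In NFD-C it was -0.21 (interval -0.49 to 0.07). Kyat3 ranged from 3.68 to 10.02 CPM in HFD-C (median 6.11), 6.16 to 12.2 in HFD-25% (8.37), 5.97 to 17.5 in HFD-50% (10.1), 6.68 to 13.9 in HFD-75% (8.27) and 6.87 to 13.1 in HFD-U (10.99). In both HFD-50% and HFD-U, 3 of 6 mice lay above the highest HFD-C mouse, and the rest overlapped. The log2 fold change was 0.71 in HFD-50% (standard error 0.28, adjusted p = 0.391 from edgeR) and 0.65 in HFD-U (standard error 0.26, adjusted p = 0.839). In HFD-25% and HFD-75% it was 0.37 and 0.43, not past the unadjusted limit.

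The Kyat3 difference depended on single mice and on the library set. In HFD-50% it no longer passed the unadjusted limit without HFD-C replicate 3 (log2 fold change 0.59), HFD-C replicate 5 (0.60) or HFD-50% replicate 4 (0.50). In HFD-U it did not pass without HFD-U replicate 4 or 6 (0.57 each). In HFD-75% it passed without HFD-C replicate 1 (0.55) or 4 (0.59), and was 0.26 without HFD-75% replicate 1. HFD-C replicates 5 and 6, the low-share libraries, had 3.99 and 5.81 CPM. Within that set alone, which leaves these 2 control mice, the log2 fold changes of Kyat3 were 0.79, 1.12, 0.84 and 1.06 from HFD-25% to HFD-U, all past the unadjusted limit, with adjusted p-values of 0.296 to 0.49 from edgeR. Kyat3 held 1.5% of the summed aminotransferase FPKM in HFD-C on average (1.1 to 2.19%), 2.28% in HFD-50% (1.54 to 4.41%) and 2.1% in HFD-U (1.79 to 2.49%). The means of NFD-C, HFD-25% and HFD-75% were 1.76, 1.75 and 1.74%, and the groups overlapped.

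**Figure D3:**
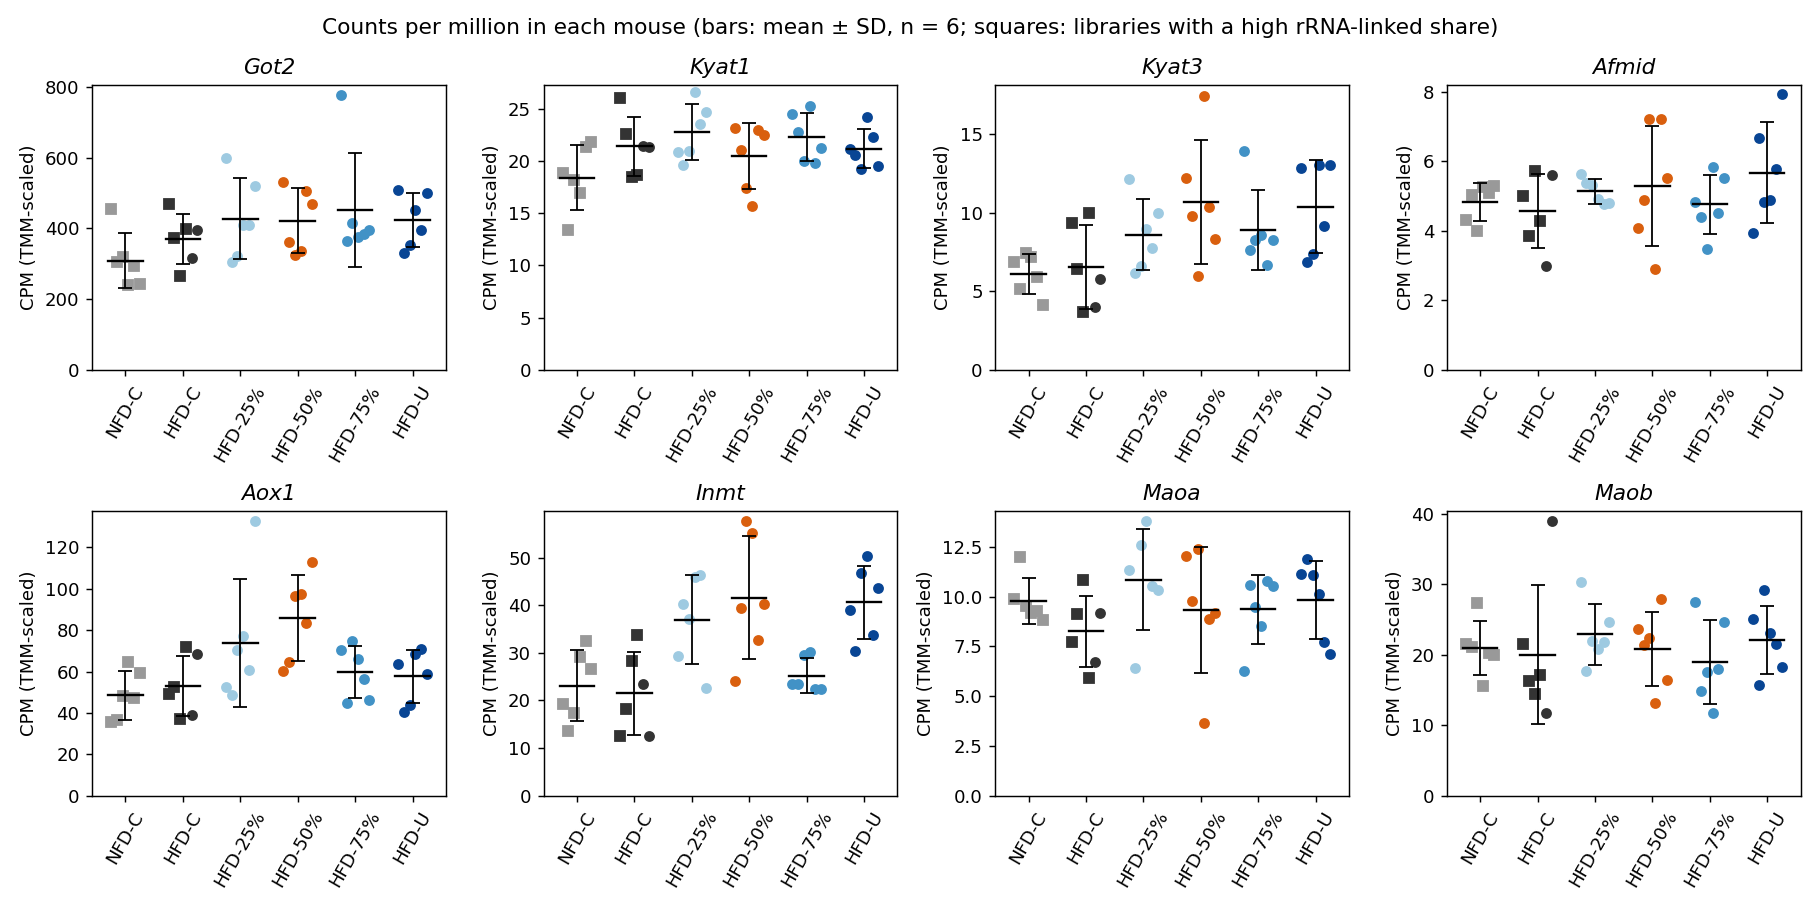
CPM (vertical axis, from 0) of the 8 members tested in each mouse, by group, with mean and SD (n = 6), where squares are libraries with a high rRNA-linked share. Inmt is higher in HFD-25%, HFD-50% and HFD-U than in HFD-C and HFD-75%, Aox1 is highest in HFD-50%, and Kyat1 is nearly level.

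Afmid, which releases kynurenine from formylkynurenine, was low and level. Its group means ran from 4.57 ± 1.07 CPM in HFD-C to 5.68 ± 1.45 in HFD-U, and it passed the unadjusted limit against HFD-C in no running group (log2 fold changes of 0.05 to 0.30, and 0.13 to 0.38 in the low-share set).

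Aox1 was highest in HFD-50%. It ranged from 37.3 to 71.8 CPM in HFD-C (median 50.8) and from 60.1 to 113 in HFD-50% (median 90.0), where 4 of 6 mice lay above all HFD-C mice and all 6 above their mean. In HFD-25% it ran from 48.6 to 133 CPM (median 65.7), in HFD-75% from 44.7 to 74.6 (61.3) and in HFD-U from 40.5 to 70.9 (61.1), all overlapping HFD-C. The log2 fold change in HFD-50% was 0.70 (standard error 0.20, adjusted p = 0.211 from edgeR). It passed the unadjusted limit in all 12 fits that left out 1 mouse, and within the low-share set it was 0.68, also past it. The other groups had 0.46 (HFD-25%), 0.16 (HFD-75%) and 0.11 (HFD-U), none past it. The value of HFD-25% was 0.21 without its replicate 6, the mouse at 133 CPM, and it passed the limit without HFD-C replicate 4 or 6 or HFD-25% replicate 1 or 2 (0.55 to 0.57).

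Aox1 also differed between running distances at the unadjusted limit. Its level in HFD-50% was 1.5 times that in HFD-U (log2 fold change 0.59, standard error 0.18, adjusted p = 0.265) and 1.45 times that in HFD-75% (0.54, adjusted p = 0.838, edgeR). In each case 4 of 6 HFD-50% mice lay above every mouse of the other group. Against HFD-25% the difference was 0.24 with an interval of -0.26 to 0.74, and 0.49, past the unadjusted limit, without HFD-25% replicate 6. Kyat3 had 0.33 there, and 0.46, past the limit, without HFD-50% replicate 3. Over these comparisons, 1 of 8 members passed the unadjusted limit against HFD-U (12.4% of genes), 2 of 8 against HFD-75% (5.37% of genes) and 0 of 8 against HFD-25% (2.69% of genes), and 0 passed adjustment with edgeR or with DESeq2 (0.00844% of genes with edgeR against HFD-U and 0% in the others).

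Inmt showed the largest difference from HFD-C among the members tested in HFD-25%, HFD-50% and HFD-U. It ranged from 12.5 to 33.8 CPM in HFD-C (median 20.9), 22.7 to 46.3 in HFD-25% (38.7), 24.1 to 57.6 in HFD-50% (39.8), 22.4 to 30.2 in HFD-75% (23.4) and 30.3 to 50.3 in HFD-U (41.2). In HFD-25%, HFD-50% and HFD-U alike, 4 of 6 mice lay above the highest HFD-C mouse, and all 24 runners lay above the HFD-C mean. The log2 fold change was 0.76 in HFD-25% (standard error 0.25, adjusted p = 0.497), 0.95 in HFD-50% (0.27, adjusted p = 0.21) and 0.90 in HFD-U (0.23, adjusted p = 0.427). In HFD-75% it was 0.22 with an interval of -0.26 to 0.70.

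These 3 differences of Inmt passed the unadjusted limit in all 12 fits that left out 1 mouse each. Within the low-share set they were 1.01, 1.19 and 1.14, where HFD-C replicates 5 and 6 had 23.5 and 12.5 CPM. Over 10 other settings the adjusted p in HFD-50% ran from 0.031 to 0.416. It was 0.0346 when all 36 libraries shared 1 fit, and it was not under 0.05 in the low-share set. Set against HFD-75%, Inmt in HFD-50% was 1.66 times as high (log2 fold change 0.73, standard error 0.19, adjusted p = 0.838), with 5 of 6 mice above every HFD-75% mouse. Against HFD-U the difference was 0.04 (interval -0.38 to 0.47) and against HFD-25% 0.18 (interval -0.29 to 0.65).

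Inmt is known from stromal cells of several tissues, so markers of the other cell types were read beside it. Of all genes tested, 6.98% (HFD-25%), 10.7% (HFD-50%), 5.47% (HFD-75%) and 5.46% (HFD-U) passed the unadjusted limit against HFD-C. The 6 fibroblast markers summed to 235 to 481 CPM in HFD-C, 214 to 459 in HFD-25%, 200.2 to 480 in HFD-50%, 235 to 399 in HFD-75% and 257 to 463 in HFD-U. Of these, 1 of 6 passed the unadjusted limit in HFD-50%, Col1a1, which was lower. The 5 endothelial markers summed to 115 to 222 CPM in HFD-C and 127 to 264 in HFD-50%, with 1 of 5 higher, Vwf. In HFD-25% all 5 were above 0 (median log2 fold change 0.32), with 1 past the limit. Within the low-share set, 1122 of 11867 genes passed the limit in HFD-50%, and 2 of 5 endothelial markers were higher at it (median 0.63). Of the 6 fibroblast markers, 0 passed it there (median 0.19). The adipocyte markers summed to 2.71 to 88.3 CPM in HFD-C and 1.56 to 15.0 in HFD-U. There 3 of 4 tested were lower at the limit (median log2 fold change -2.04), while HFD-25% had 1 of 4 lower (median -1.71). The median sums were not clearly lower, with 7.661 CPM in HFD-C, 7.655 in HFD-25% and 9.081 in HFD-U. HFD-50% had 0 of 4 lower over all libraries (median -0.78) and 3 of 5 lower in the low-share set (median -2.09). Of the macrophage, Schwann cell and blood markers, 0 passed the limit in HFD-25% or HFD-50%, and 1 of each list was lower in HFD-U. For HFD-75% these counts were 2, 0 and 1. The part of these cells in the Inmt result was not tested. Slow fibre genes, which mark oxidative fibres, were above HFD-C in HFD-50% in 7 of 7 cases (median log2 fold change 0.91, 0 past the unadjusted limit). In the comparison of HFD-50% with HFD-U, in which Aox1 differed, all 7 were above 0 and 6 passed the limit (median 1.99, 12.4% of genes). Against HFD-75% all 7 were above 0 and 3 passed it (median 1.27, 5.37% of genes). The part of fibre type in the Aox1 result was not tested. Nor was it for Kyat3, whose level went with the fast myosin Myh1 (Pearson's r = 0.844 over the 36 libraries).

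The monoamine oxidases, which break down serotonin, tryptamine and other amines, differed little. Maoa ranged from 5.91 to 10.8 CPM in HFD-C (median 8.43) and was farthest from it in HFD-25%, with 6.42 to 13.8 CPM (median 10.9). That log2 fold change was 0.37 (interval -0.03 to 0.77), and it passed the unadjusted limit without HFD-C replicate 3 (0.47) or HFD-25% replicate 2 (0.48). Maoa had 0.22 to 0.43 within the low-share set, not past the limit. Maob ranged from 11.7 to 39.0 CPM in HFD-C, where replicate 6 stood alone at the top and the next mouse had 21.6. Its log2 fold changes in the running groups were -0.08 to 0.17. Without HFD-C replicate 6 they were 0.48 in HFD-25%, 0.44 in HFD-U and 0.37 in NFD-C, all past the unadjusted limit in edgeR, while HFD-50% had 0.35 and HFD-75% 0.22, not past it. Within the low-share set, which keeps that mouse, Maob had -0.16, -0.29, -0.43 and -0.21 from HFD-25% to HFD-U, none past the limit.

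When all 24 runners were fitted against HFD-C, Inmt and Kyat3 were higher at the unadjusted limit (2 of 8, 9.27% of genes). With edgeR 0 of 8 passed adjustment, which 0.3% of genes did. The log2 fold change of Inmt was 0.73 (standard error 0.21, adjusted p = 0.145) and that of Kyat3 0.54 (standard error 0.20, adjusted p = 0.354, edgeR). DESeq2 on the same genes gave Inmt an adjusted p of 0.0455, and it was 1 of 8 members to pass, beside 94 of 12006 genes. Kyat3 did not pass the unadjusted limit without HFD-C replicate 3 (0.42). Within the low-share libraries the values were 0.98 and 0.96. Aox1 had 0.37, and passed the limit without HFD-C replicate 4 or 6, HFD-75% replicate 2 or 6 or HFD-U replicate 2 or 3 (0.39 to 0.48).

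Distance was also fitted as a linear and a quadratic term over the 30 mice fed the high-fat diet. Aox1 (adjusted p = 0.255) and Kyat3 (adjusted p = 0.377) passed the unadjusted limit, which 12.2% of genes did. Inmt did not pass (adjusted p = 0.427), but did so in 5 of 11 other settings, among them the groups as a factor instead of a curve (adjusted p = 0.0819), and not in the low-share set (adjusted p = 0.725). It also passed in 9 of 30 fits that left out 1 mouse. With a linear term alone, Aox1 did not pass (adjusted p = 1). Kyat3 was past the limit in 24 of 30 fits that left out 1 mouse. Over the 24 runners alone 0 of 8 members passed (8.49% of genes), with an adjusted p = 0.62 for Aox1. With edgeR or DESeq2, 0 members passed adjustment in either fit, against 0.683 and 0.0419% of genes with edgeR.

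The diet itself was compared in sedentary mice, NFD-C against HFD-C, where 0 of 8 members passed the unadjusted limit (4.12% of genes) and 0 passed adjustment with edgeR or DESeq2. The log2 fold changes ran from -0.25 for Got2 to 0.25 for Maoa. Inmt had 23.1 ± 7.43 CPM in NFD-C and 21.5 ± 8.67 in HFD-C, and Aox1 48.6 ± 11.8 and 53.0 ± 14.5. Kyat3 had 6.112 ± 1.299 and 6.55 ± 2.66 CPM (SD, n = 6). Maoa passed the unadjusted limit without HFD-C replicate 3 (log2 fold change 0.35 from edgeR).

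The rest of the kynurenine pathway was hardly counted in this muscle. The 8 genes Ido1, Ido2 and Tdo2, which open tryptophan, Kmo, Kynu and Haao, which lead to quinolinate, and Acmsd and Aldh8a1 were all under the count minimum in every comparison. The most abundant was Ido1 with a mean of 0.118 FPKM. Of 8 further enzymes of serotonin, melatonin and indoles, 0 could be tested in HFD-50% against HFD-C, and Cyp1a1 had the highest level (0.498 FPKM).

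Enzymes that act on aldehydes and on the carbon chain of tryptophan were better counted. The counts of genes past the unadjusted limit in HFD-50% that follow stand beside 10.7% of all genes. Those of HFD-50% within the low-share set stand beside 1122 of 11867 genes. Of 9 aldehyde dehydrogenases and oxidases, 5 were tested in HFD-50% and 2 were higher at the unadjusted limit. Aldh9a1, which oxidises aldehydes of amines, had 39.6 ± 16.7 CPM against 14.8 ± 8.80 in HFD-C (log2 fold change 1.42, adjusted p = 0.154). Aldh2, the mitochondrial enzyme also known from alcohol breakdown, had 117 ± 21.7 against 80.3 ± 18.9 CPM (0.55, adjusted p = 0.269). In the low-share set they had 1.25 and 0.61, both past the limit. The other Aox genes, Aox2, Aox3 and Aox4, had 0.0365 FPKM or less. Catalase, Cat, the most abundant of the list, had 108 ± 25.3 against 116 ± 42.8 CPM.

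Of 12 genes for the glutaryl-CoA and thiolase steps, 3 were higher in HFD-50% at the unadjusted limit, and the median log2 fold change was 0.04. Dhtkd1, a subunit of the 2-oxoadipate dehydrogenase, had 11.5 ± 6.22 against 5.91 ± 1.76 CPM (0.96, adjusted p = 0.244). Gcdh, which decarboxylates glutaryl-CoA, had 41.6 ± 9.45 against 31.7 ± 6.98 CPM (0.39, adjusted p = 0.438), and the peroxisomal Ehhadh 9.81 ± 2.81 against 6.98 ± 1.56 (0.49, adjusted p = 0.416). Hadha of fatty acid oxidation had the highest level, with 369 ± 135 against 331 ± 145 CPM. In HFD-75% (5.47% of genes) and HFD-U (5.46% of genes), 0 of 12 passed the limit. Neither did any in HFD-50% within the low-share set, where Dhtkd1 had 0.85, Ehhadh 0.65 and Gcdh 0.21.

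Of 5 transporters tested in HFD-50%, 3 were above 0 and 2 were lower at the limit (median log2 fold change 0.16). Slc16a10, a carrier of aromatic amino acids, had 36.6 ± 8.27 against 53.7 ± 11.9 CPM (log2 fold change -0.56, adjusted p = 0.253). Slc7a5, the large neutral amino acid transporter that carries tryptophan and kynurenine, had 1.33 ± 0.462 against 2.38 ± 1.02 (-0.84, adjusted p = 0.404). Of 7 NAD genes tested, 3 were above 0 and 1 was lower at the limit (median -0.09), and in HFD-U 1 of 7 was higher (5.46% of genes). The gene in HFD-50% was the nicotinamide riboside kinase Nmrk2, with 42.7 ± 18.4 against 70.4 ± 15.7 CPM (-0.73, adjusted p = 0.346). Within the low-share set Slc16a10 had -0.62, past the limit, and Nmrk2 -0.64, not past it, while Slc7a5 was under the count minimum. Of the 4 transporters tested in that set, 1 was higher and 1 lower at the limit (median 0.23). Of 8 genes of the malate-aspartate shuttle and glutamate, 0 passed, and Mdh2 was the most abundant with 667 ± 124 against 657 ± 108 CPM.

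Among regulators of the PPAR family, 3 of 5 were above 0 (median log2 fold change 0.04), and 1 passed the unadjusted limit in HFD-50%: the coactivator Ppargc1b, with 5.37 ± 2.53 against 12.9 ± 8.92 CPM (log2 fold change -1.27, adjusted p = 0.282). It had -0.23 within the low-share set, not past the limit. In that set 1 of 5 regulators was higher and 0 were lower at the limit (median 0.16). Ppargc1a, the gene of PGC-1α, averaged 35.06 CPM over the 36 libraries, against 7.894 CPM for Ppargc1b. In HFD-50% over all libraries, Ppargc1a did not pass the unadjusted limit. Esrra, the most abundant, had 87.2 ± 28.5 against 91.1 ± 12.2 CPM. Of 10 PPAR targets, 6 were higher and 0 lower at the unadjusted limit, and the median log2 fold change was 0.67. Angptl4, an inhibitor of lipoprotein lipase, had 24.2 ± 12.6 against 7.01 ± 4.38 CPM (1.79, adjusted p = 0.121). Acot1, a thioesterase whose near-identical neighbours make its count uncertain, had 7.21 ± 5.31 against 1.80 ± 0.962 (2.004, adjusted p = 0.163). Within the low-share set Angptl4 had 1.75 and Acot1 2.37, and 6 of 10 targets were again higher at the limit (1122 of 11867 genes passed it there). Fabp3, the most abundant target, had 1031 ± 497 against 852 ± 460 CPM. In HFD-U 0 of 9 targets tested passed the limit against HFD-C (5.46% of genes), and in HFD-75% 3 of 9 were higher (5.47% of genes). Tested directly, HFD-50% had 6 of 10 targets higher than HFD-U at the limit (12.4% of genes), and 1 passed adjustment (adjusted p = 0.0106, edgeR). Against HFD-75% 3 of 10 were higher (5.37% of genes) and against HFD-25% 1 of 10 (2.69% of genes), with 0 past adjustment. In the edgeR distance fits, 1 target passed adjustment with HFD-C (adjusted p = 0.00334) and 1 over runners alone (adjusted p = 0.0154).

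Of 4 genes of the aryl hydrocarbon receptor, which binds kynurenine and other tryptophan products, 1 was lower in HFD-50%. This was Nqo1, with 24.7 ± 2.20 against 31.6 ± 1.37 CPM (log2 fold change -0.36, adjusted p = 0.192). In all runners against HFD-C, 1 gene of this list, Nqo1 again and the only one of the pathway lists, passed adjustment (log2 fold change -0.35, adjusted p = 0.0473, edgeR). Within the low-share set Nqo1 had -0.33 in HFD-50%, not past the unadjusted limit, and -0.32 in all runners, past it but not past adjustment (adjusted p = 0.299). Arnt, the most abundant, had 49.2 ± 10.6 CPM in HFD-50% and 44.4 ± 6.33 in HFD-C.

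**Figure D4:**
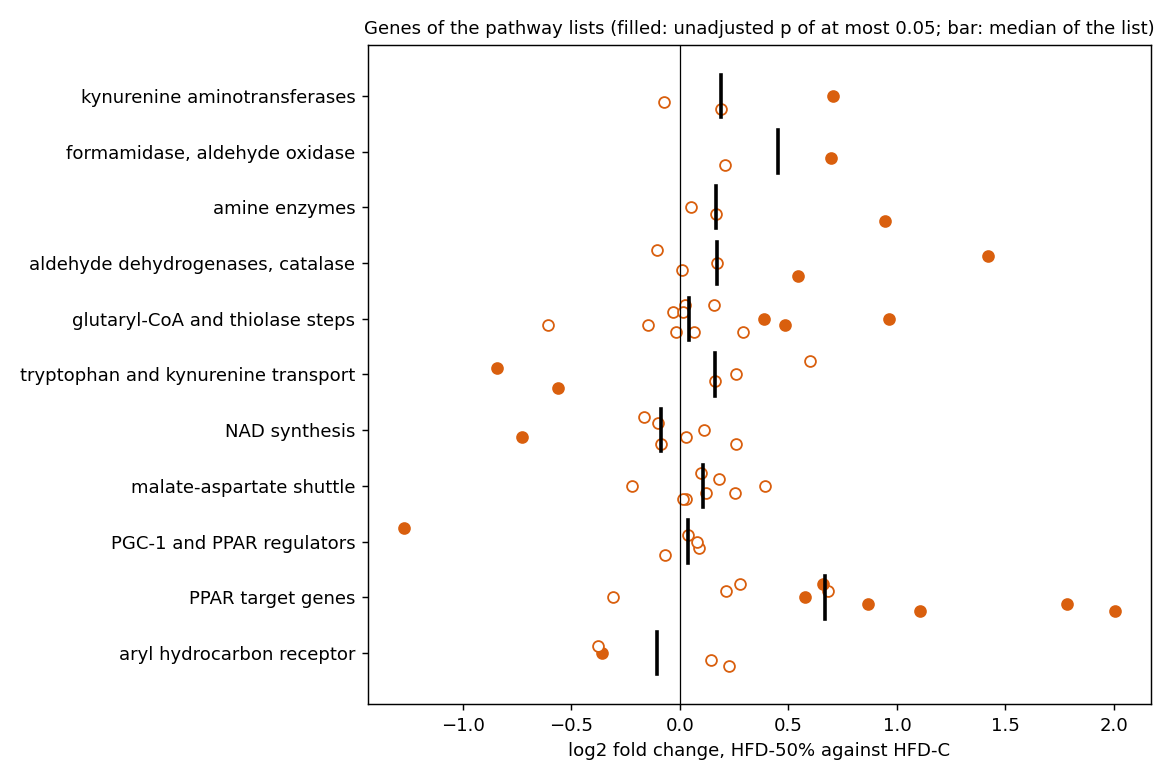
Log2 fold change of HFD-50% against HFD-C (horizontal axis) for each gene tested in 11 lists, with filled points at the unadjusted limit of 0.05 and bars at the list medians. The PPAR targets lie farthest to the right, with a median of 0.67 and 6 of 10 filled, and the single filled regulator, Ppargc1b, lies at -1.27.

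For each member, the genes most alike over the 36 libraries were found by Pearson's r of log2 CPM among 12052 genes. These values describe libraries that share groups, depth and fibre makeup. Got2 was closest to Hadha (r = 0.959), the electron transfer protein Etfa (0.952) and its cytosolic counterpart Got1 (0.946). Kyat3 was closest to the mitochondrial carrier Slc25a34 (0.859), the prolyl hydroxylase Egln3 (0.847) and the fast myosin Myh1 (0.844). Aox1 went with Pcsk4 (0.851), Lgals4 (0.849) and Art5 (0.837), and Inmt with Phf24 (0.77), Lvrn (0.727) and Rab27a (0.694). For the other members, the genes were Serhl (0.675), Mtfp1 (0.634) and Sirt3 (0.632) for Kyat1, Maged2 (0.674), Ift27 (0.668) and Egflam (0.65) for Afmid, Itga4 (0.695) and Actc1 (0.691) for Maoa, and Ctsb (0.7), Ncam1 (0.683) and Ostm1 (0.657) for Maob. Between members, the highest r was 0.716 for Kyat3 and Got2, and that of Aox1 and Inmt was 0.41.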

How the data were processed

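Gastrocnemius RNA of 36 mice, 6 in each of 6 groups set by the sample labels, was sequenced. The authors deposited 1 table of raw gene counts with gene positions and lengths. The submitters' processing notes name HISAT2 2.0.5 and featureCounts 1.5.0-p3, and the genome mm10, whereas the chromosome accessions in the table are those of GRCm39. Strand use in counting is not given in the sources used here.

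CPM (counts scaled to the library size) and FPKM (CPM per 1000 bases of the deposited length) were computed here. Tests used edgeR 4.0.16 in R 4.3.3 (quasi-likelihood F-test, TMM scaling) on genes that averaged 25 counts or more in a fit, with Benjamini-Hochberg adjustment over all of them. Ddc was tested with an exact permutation test. Similarity used log2 CPM with a prior count of 1. The edgeR and DESeq2 fits of HFD-50% against HFD-C, and the edgeR distance fit with HFD-C, were tested on simulated data. The other steps were not. The alternatives were DESeq2 1.42.0, RLE size factors, every gene with a count, 1 fit over all libraries, removal of rRNA-linked features, a term for the library set, the low-share set alone, the mouse number as a block, a group factor or a linear term for distance, and leaving out each mouse. Mice numbered 2 to 6 alone, and the low-share set for the pathway genes and cell markers, were added after seeing the data.

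All 10 members were named, with the 3 genes most similar to each member, and from each pathway list the most abundant gene and up to 3 with the smallest unadjusted p of at most 0.05 in HFD-50% against HFD-C. Some genes that this rule names are not reported here. Col1a1, Vwf and Ppargc1a were named after their values were seen. The members and lists were chosen with earlier results of these data known. Libraries of a group differed by 16.2 to 215 in chi-square per degree of freedom, so that none was a repeat of another. Same-numbered mice of HFD-U and HFD-C deviated together, taken as r above 0.1, in all 6 pairs (r = 0.12 to 0.51). In the other comparisons between single groups, 1 to 5 of 6 pairs did so. For HFD-25% against HFD-C, r ran from 2.56e-05 to 0.315, with 3 of 6 pairs above 0.1. Floors cover counting error only, while the intervals of fold changes are edgeR's and include the spread between mice. Promoters came from a RefSeq table on GRCm38.p6, which held 9 of the 10 members.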

Additional observations from a re-analysis of the deposited data

Results flagged for a closer look

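In 7 of 54 groups of 6 mice, 1 mouse lay farther from the others than Dixon's 95% limit allows, and chance flags about 1 in 20 groups. HFD-75% replicate 1 was the highest of its group for both Got2 (778 CPM, next 416) and Kyat3 (13.9 CPM, next 8.6). NFD-C replicate 1 had 454 CPM of Got2 (next 319), and NFD-C replicate 2 had 12 CPM of Maoa (next 9.88). HFD-25% replicate 6 had 133 CPM of Aox1 (next 77.4), and HFD-25% replicate 3 had 1.25 CPM of Ddc (next 0.365), a gene with few counts. HFD-C replicate 6 had 39 CPM of Maob (next 21.6).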

How the results depend on the processing

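Values of single members were followed for all members tested in each single group against HFD-C, and for Kyat3, Aox1 and Inmt elsewhere. Of 554 such values under other settings, 516 kept their direction and side of the unadjusted limit, 28 came to pass it, 3 ceased to and 7 reversed. Of 840 values with 1 mouse left out, 768 kept both, 34 came to pass, 12 ceased to and 26 reversed. The cause of the changes was not tested. The count of members past adjustment was 0 in each comparison as reported. In HFD-50% it was 1 (Inmt) with DESeq2 on the same or on every gene, and with 1 fit over all libraries. It was also 1 with the mouse number as a block (adjusted p = 0.031). In that order, these settings passed 160 of 12116, 152 of 26225, 162 of 12116 and 50 of 12116 genes, against 0 of 12116 as reported. The count was 1 in HFD-U with DESeq2 on every gene (adjusted p = 0.0434), which passed 38 of 25964 genes. In all runners it was 1 with either DESeq2 fit and with the block (adjusted p = 0.0263). These passed 94 of 12006 (same genes), 124 of 28796 (every gene) and 81 of 12006 genes (block). In HFD-U, where same-numbered mice deviated together although the labels state no pairing, the block changed no call (Inmt 0.97, adjusted p = 0.11). At the unadjusted limit, HFD-25% had 1 member (852 of 12202 genes). It had 2 with edgeR (2415 of 26307) or DESeq2 (1347 of 26307) on every gene, or with 1 fit (999 of 12202). It also had 2 with the library set term (1495 of 12202) or the low-share set (1403 of 12051), and 3 with the block (1010 of 12202). HFD-75% had 0 (663 of 12113 genes), but 1 with the block (835 of 12113), the library set term (1088 of 12113) or the low-share set (1069 of 11885). All runners had 2 (1113 of 12006 genes), but 4 with the block (1431 of 12006). They had 3 with edgeR (3928 of 28796) or DESeq2 (1894 of 28796) on every gene. They also had 3 with DESeq2 on the same genes (1164 of 12006) or 1 fit (1188 of 12006). NFD-C had 0 (504 of 12247 genes), but 1 in mice numbered 2 to 6 (636 of 12114), a setting chosen after seeing the data. HFD-50% against HFD-25% had 0 (323 of 12020 genes), but 1 with the block (436 of 12020). The distance fit with HFD-C had 2 (1468 of 12006 genes), but 1 with a linear term alone (474 of 12006) or the library set term (1384 of 12006). It had 3 with edgeR (5723 of 28796) or DESeq2 (2188 of 28796) on every gene. It also had 3 with DESeq2 on the same genes (1579 of 12006) or the block (2112 of 12006). The fit over runners had 0 (1013 of 11935 genes), but 1 with edgeR on every gene (3699 of 28226) or the block (1497 of 11935). It also had 1 with a linear term alone (851 of 11935) or mice 2 to 6 (1201 of 11978), and 2 with the group factor (868 of 11935). With 1 mouse left out, these counts ran from 1 to 3 in HFD-25%, 0 to 1 in HFD-75%, 1 to 3 in HFD-U and 1 to 4 in all runners. The genes past the limit ran in the same order from 629 to 1083, 514 to 807, 527 to 829 and 969 to 1251. Member counts ran from 0 to 1 in NFD-C, 0 to 1 in HFD-50% against HFD-25%, 1 to 3 in the fit with HFD-C and 0 to 1 over runners. The genes ran there from 377 to 784, 203 to 526, 1197 to 1789 and 696 to 1348. Among the followed values, Maob reversed in HFD-25%, HFD-50% and HFD-U with the library set term (-0.18, -0.30 and -0.22) and in the low-share set (-0.16, -0.29 and -0.21). Kyat1 in HFD-U was 0.034 in mice 2 to 6. Values outside these reversed too, for example Maob in all runners (0.067 as reported, -0.28 to 0.099 over other settings). With 1 mouse left out, followed log2 fold changes that reversed were Maob in HFD-50% (-0.060 to 0.35), HFD-75% (-0.21 to 0.22) and NFD-C (-0.054 to 0.37). Others were Afmid in HFD-75% (-0.047 to 0.13) and NFD-C (-0.021 to 0.16), and Kyat1 in HFD-U (-0.075 to 0.027). Kyat3 (-0.21 to 0.067) and Inmt (-0.017 to 0.28) reversed in NFD-C. Against HFD-U, HFD-50% ran from -0.15 to 0.17 for Kyat3 and from -0.082 to 0.16 for Inmt. At the depths counted, Ddc and Aadat could not be compared beyond their floors.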
